A study of Mus musculus with 12 samples.

Results

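The genes described here encode the initiation and elongation factors of cytosolic translation. They were chosen by symbol, as a list of 47 genes in 12 factor groups, and all 47 were found among the 24982 gene symbols of the deposited files. The rule itself uses symbols only, but the list was drawn up with earlier results of these data known, so it was not chosen blind to them. RNA was sequenced from B lymphocytes of the spleen in mice 6 weeks old, in 3 groups of 4 libraries that the labels call biological replicates. WT mice carried no transgene and are named as C57BL/J6 in the series' design. Eμ-Myc mice carry Myc under the immunoglobulin heavy-chain enhancer, which drives it in the B lineage, so every cell of that lineage is exposed from early development on. The third group, Eμ-Myc; PRPS2 KO, carries the same transgene and lacks PRPS2, one of the synthetases that supply phosphoribosyl pyrophosphate to the nucleotide pathways. PRPS2 loss was therefore measured within the transgenic background alone, and the labels do not say in which cells the gene was deleted or how many mice gave each library.

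Translation of most messenger RNAs starts at the cap. The eIF4F complex, made of the cap-binding protein eIF4E, the scaffold eIF4G and the RNA helicase eIF4A, brings the message to the small ribosomal subunit. That subunit carries eIF1, eIF1A, eIF3 and the initiator tRNA held by eIF2, and it scans for a start codon. eIF2B recharges eIF2 with GTP after each round, eIF5 and eIF5B govern start codon choice and joining of the large subunit, and eIF6 keeps free large subunits apart. The eIF4E-binding proteins hold eIF4E away from eIF4G until mTOR phosphorylates them. eEF1 delivers aminoacyl-tRNAs, eEF2 moves the ribosome along and is switched off by its kinase, and eIF5A, which carries the modified lysine hypusine, relieves ribosomes stalled on difficult peptide bonds. MYC is known to bind near many genes of protein synthesis, and eIF4E is a classic partner of MYC in lymphoma models.

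The values are mean coverages per gene, divided here by 1 scaling factor per library, and they are called scaled coverage. Since coverage is per base, levels of different genes can be set side by side, although the bases over which it was averaged are not given in the sources used here. Coverage summed over all genes ran from 1277305.5 to 1885768.9 per library, the read depth is unknown, and no 2 libraries were identical. The library labels were checked with Prps2, which was between 15.5 and 18.2 in the knockout libraries, 103 and 142 in WT, and 199 and 292 in Eμ-Myc. The 6 B-cell markers were present in all libraries, with a summed level between 5911 and 11410. In WT libraries 1 to 4 they summed to 6288, 11410, 9973 and 5911, so WT itself was uneven. The libraries also held other cells' RNA in unequal amounts. The 7 T-cell markers found in the files summed to between 634 and 3216 in WT and between 147 and 202 in Eμ-Myc. In knockout libraries 1 to 4 they summed to 721, 766, 53.7 and 54.8, so libraries 1 and 2 stood apart from 3 and 4. In bulk RNA, fewer cells of a type and less RNA per cell cannot be told apart.

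The binding motif of MYC and its partner MAX is the E-box, spelled CACGTG, which reads the same on both strands. RefSeq's promoter table for GRCm38.p6 held windows for 36 of the 47 genes, and the 250 bases before each listed start were searched. The motif was in 9 of these 36 genes (25%), against 982 of 9807 tested genes (10%) and 306 of the 2888 genes called higher in Eμ-Myc (10.6%). The 9 genes were Eif3f, Eif3k, Eif4a1, Eif4h, Eif4e, Eif4g1, Eif5a, Eef2 and Eef2k. Their median log2 fold change in Eμ-Myc was 0.85, against 0.72 in the 27 members without the motif, and over all tested genes the same medians were -0.02 and -0.05. The stretches below show the motif in genes whose levels are described in the next paragraphs, with Eif3f as a holder of the motif that did not pass the test. Capitals mark the motif and the strand is the gene's own.
Eif4a1, chr11:69672577-69672642, minus strand: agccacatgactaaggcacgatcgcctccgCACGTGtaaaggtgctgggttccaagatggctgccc
Eif4g1, chr16:20672643-20672708, plus strand: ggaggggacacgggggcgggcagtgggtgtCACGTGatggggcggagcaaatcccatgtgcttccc
Eif5a, chr11:69921425-69921490, minus strand: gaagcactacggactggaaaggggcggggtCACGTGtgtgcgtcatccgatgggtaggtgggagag
Eef2, chr10:81176558-81176623, plus strand: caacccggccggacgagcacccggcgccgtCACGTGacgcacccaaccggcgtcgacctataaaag
Eef2k, chr7:120842770-120842830, plus strand: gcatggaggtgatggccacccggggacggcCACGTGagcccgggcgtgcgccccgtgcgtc
Eif3f, chr7:108934317-108934382, plus strand: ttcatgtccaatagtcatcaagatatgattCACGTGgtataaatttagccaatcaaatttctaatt
The motif began 189 bases before the listed start of Eif4a1, 54 before that of Eif4g1, 74 before one of those of Eif5a, 43 before that of Eef2, 31 before one of the 3 of Eef2k and 68 before that of Eif3f. Eif4e held it at 228 and 64 bases before one of its 2 listed starts. A match of letters is a description of the sequence, not evidence that a factor binds there.

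Most of the 47 translation factor genes were higher in Eμ-Myc B cells than in WT B cells. All 47 were high enough to be tested, and 41 of them rose at an adjusted p under 0.05 while none fell (limma, 8 libraries, Benjamini-Hochberg over 12723 genes). Over all genes tested, 55.7% were called, 29% as higher and 26.7% as lower. The median log2 fold change of the 47 was 0.76, against -0.05 over all tested genes. In 39 of the 47 every Eμ-Myc library was above every WT library, which held for 27.1% of all tested genes. The increases ranged from 1.23-fold for Eif5 to 2.95-fold for Eef1e1. T-cell and NK-cell marker sums were also lower in Eμ-Myc (NK-cell 66.84 to 177.1, against 254.5 to 971.4 in WT). Myeloid sums overlapped (5645 to 16560, against 8003 to 25590 in WT), and WT library 1 and Eμ-Myc library 2 were the highest of their groups. The part of RNA from other cells in the differences was not tested. When coverage was scaled by the library total, which moved every log2 fold change by -0.14, 37 genes rose and 3 fell (Eif4a2, Eif4e3 and Eif4g3), where 24.1% of all tested genes were called higher and 33.3% lower.

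**Figure D1:**
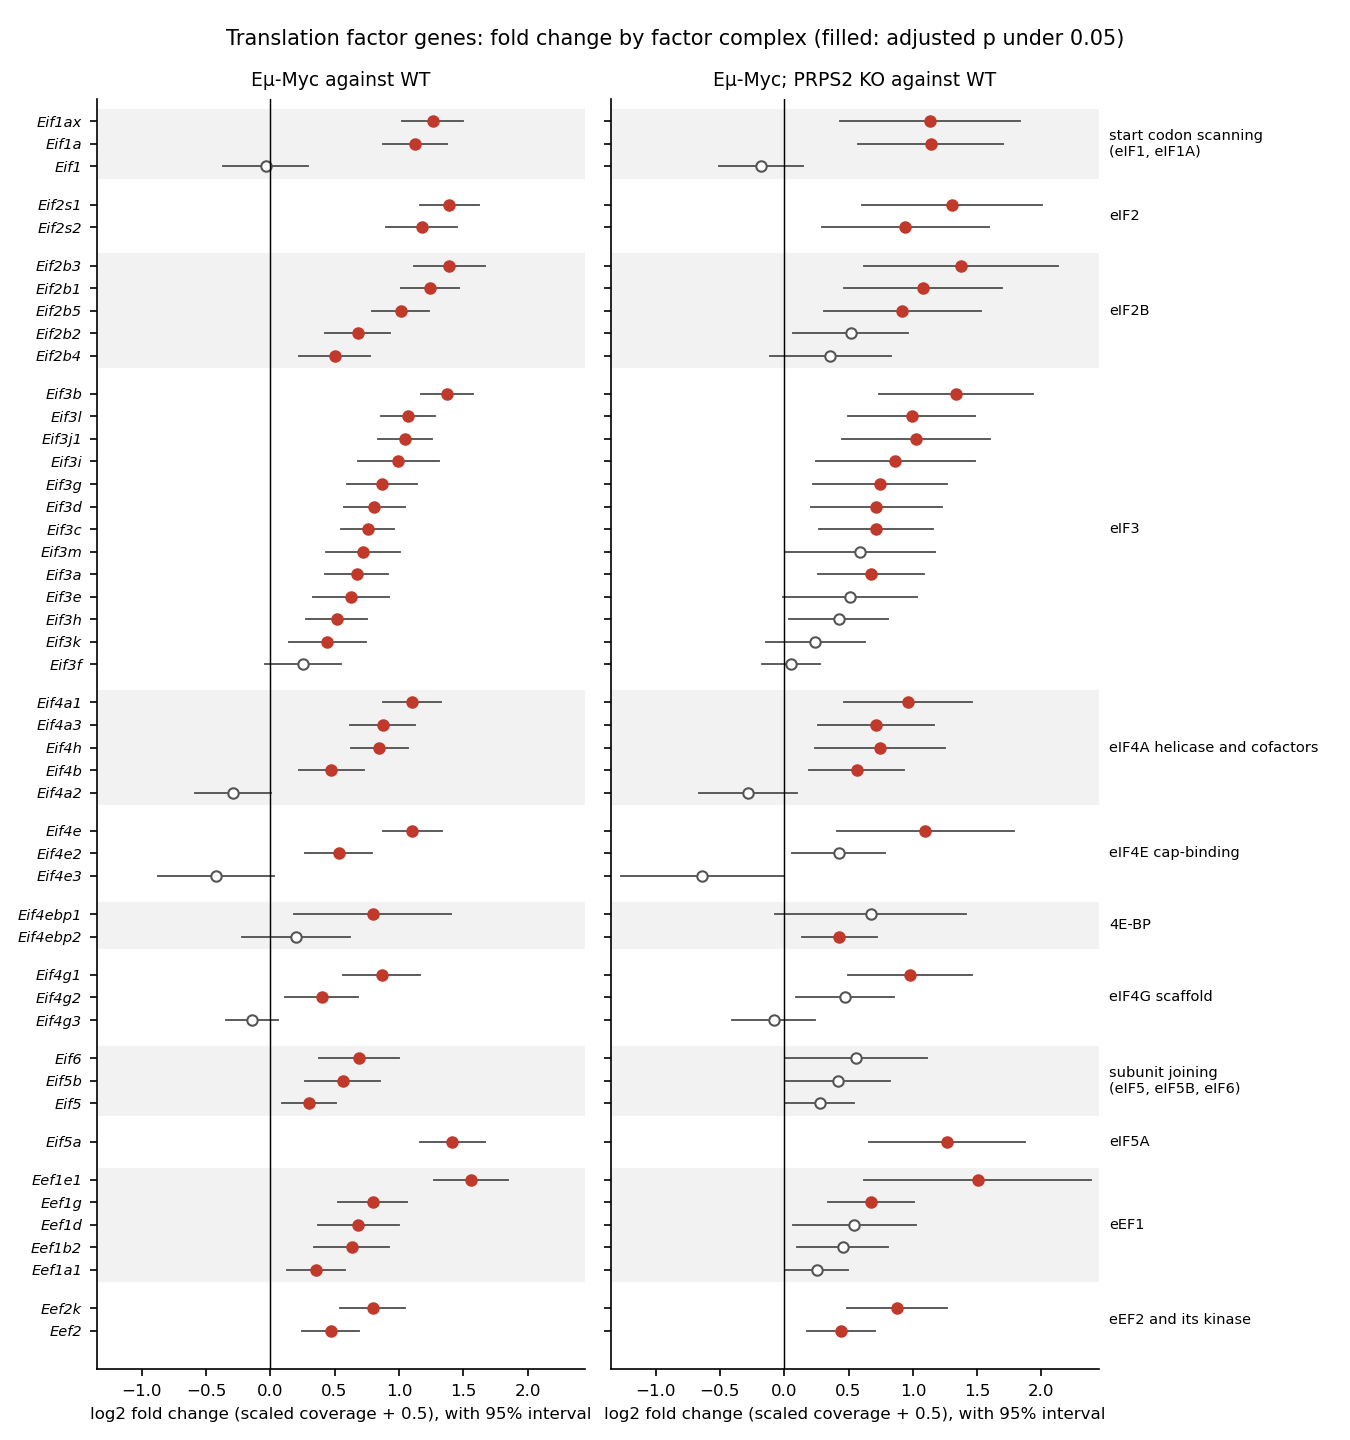
Log2 fold change of each of the 47 genes with its 95% interval, for Eμ-Myc against WT (left) and Eμ-Myc; PRPS2 KO against WT (right), grouped by factor; filled points passed an adjusted p of 0.05. On the left 41 points are filled and all lie right of 0; on the right the intervals are wider and 27 are filled.

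Among the factors that sit on the scanning small subunit, the genes of eIF1A rose and that of eIF1 did not pass. Eif1ax, the X-linked eIF1A gene, was at 30.9, 33.6, 32.1 and 31.1 in the WT libraries and at 66.1, 79.7, 77.7 and 87.0 in the Eμ-Myc libraries. The lowest Eμ-Myc library was well above the highest WT library, and the WT values lay close together. The rise was 2.4-fold (log2 1.26, SE 0.10, adjusted p = 1.81e-05). Its near-identical autosomal copy Eif1a rose 2.18-fold, and how the authors divided reads between the pair is not given in the sources used here. Eif1, the gatekeeper of start codon choice, differed by -0.03 on the log2 scale (95% interval -0.36 to 0.30, adjusted p = 0.855).

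Of eIF2, which brings the initiator tRNA, the alpha and beta subunits are among the 47 genes, and both rose. Eif2s1 encodes the alpha subunit, whose phosphorylation shuts initiation down under stress. It was at 54.7, 58.0, 57.9 and 59.9 in WT and at 131, 147, 168 and 163 in Eμ-Myc. The groups were far apart, with a 2.62-fold rise (log2 1.39, SE 0.10, adjusted p = 8.98e-06). Eif2s2, the beta subunit, rose 2.26-fold. Genes of the gamma subunit stand in the second list described further on. Eif2s3x rose 1.68-fold (adjusted p = 0.00573), and its Y-linked copy Eif2s3y did not pass (log2 -0.05, adjusted p = 0.731). Eif2s3y was the higher of the pair, with means of 261 in WT and 252 in Eμ-Myc, against 17.2 and 29.7 for Eif2s3x.

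All 5 subunits of eIF2B, the exchange factor that recharges eIF2, rose, and in all 5 the groups did not overlap. Eif2b3, the gamma subunit of its catalytic part, was at 19.7, 20.7, 17.9 and 22.8 in WT and at 45.1, 58.2, 54.8 and 58.4 in Eμ-Myc. The lowest Eμ-Myc library was far above the highest WT library, and the rise was 2.63-fold (log2 1.39, SE 0.12, adjusted p = 2.53e-05). The subunits did not rise by one amount. Eif2b1, the alpha subunit, rose 2.37-fold and Eif2b5, the catalytic epsilon subunit, 2.02-fold, while Eif2b2 rose 1.6-fold and Eif2b4 1.41-fold, a call lost with all 12 libraries in one fit.

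Of the 13 subunits of eIF3, the large scaffold that joins the small subunit to eIF4G, 12 rose. Eif3b, a core subunit, had the smallest adjusted p of all 47 genes. It was at 147, 162, 153 and 164 in WT and at 369, 410, 416 and 436 in Eμ-Myc. The libraries of each group lay close together and the rise was 2.60-fold (log2 1.38, SE 0.09, adjusted p = 5.46e-06). Eif3l and Eif3j1 rose 2.10-fold and 2.07-fold, and the other core subunits Eif3a and Eif3c 1.59-fold and 1.69-fold. Smaller increases were seen in Eif3h (1.43-fold) and Eif3k (1.36-fold), and the groups of Eif3k overlapped. The Eif3k call was lost with all 12 libraries in one fit and without Eμ-Myc library 4. Eif3f, a subunit with a deubiquitinase-like fold, was at 639, 666, 582 and 691 in WT and at 696, 985, 676 and 744 in Eμ-Myc. Its groups overlapped and it did not pass (log2 0.25, 95% interval -0.04 to 0.55, adjusted p = 0.129). Values of Eif3j1 and of its duplicate Eif3j2 were nearly the same in every library (27.25 for both in WT library 1), so the copies cannot be told apart.

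In the eIF4F complex Eif4a1, Eif4e and Eif4g1 rose, while the paralogues Eif4a2, Eif4e3 and Eif4g3 did not pass. Eif4a1, an eIF4A helicase, was at 773, 728, 704 and 805 in WT and at 1403, 1735, 1627 and 1710 in Eμ-Myc. The groups were well separated and the rise was 2.15-fold (log2 1.10, SE 0.10, adjusted p = 2.81e-05). Its paralogue Eif4a2 stood at 1735, 1585, 1621 and 2295 in WT and at 1604, 1390, 1489 and 1379 in Eμ-Myc. WT library 4 was highest, the groups overlapped, and the difference did not pass (log2 -0.29, 95% interval -0.58 to 0.00, adjusted p = 0.0840). Under both other scalings Eif4a2 passed as lower (log2 -0.36 and -0.43, adjusted p = 0.048 and 0.024). The helicase cofactors Eif4b and Eif4h rose 1.39-fold and 1.80-fold, the call of Eif4b being lost under scaling by total coverage, and Eif4a3, a relative that works in the exon junction complex, rose 1.83-fold.

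Eif4e, the cap-binding subunit, was at 46.9, 47.4, 44.3 and 48.4 in WT and at 89.7, 94.5, 108 and 115 in Eμ-Myc. It rose 2.15-fold (log2 1.11, SE 0.10, adjusted p = 3.20e-05), and no library of one group came near the other group. Eif4e2, a cap-binding homologue that represses translation, rose 1.45-fold. Eif4e3, the third homologue, was at 46.2, 34.0, 27.2 and 32.2 in WT and at 24.2, 35.5, 23.1 and 21.2 in Eμ-Myc. Eμ-Myc library 2 lay inside the WT range and the other libraries below it, and the difference did not pass (log2 -0.42, adjusted p = 0.102). Without that library Eif4e3 passed as lower.

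Eif4g1, an eIF4G scaffold, was at 255, 281, 305 and 289 in WT and at 509, 403, 579 and 590 in Eμ-Myc. Eμ-Myc library 2 was the lowest of its group and still above all WT libraries. The rise was 1.82-fold (log2 0.87, SE 0.13, adjusted p = 0.000556). Eif4g2, which lacks the eIF4E-binding region, rose 1.32-fold, a call that was lost under scaling by total coverage, with all 12 libraries in one fit, and without Eμ-Myc library 3 or 4. Eif4g3 differed by -0.14 on the log2 scale and did not pass (95% interval -0.35 to 0.06).

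The balance within these pairs of paralogues can be read without any scaling between libraries, as the ratio of their coverages in one library. Eif4a1 over Eif4a2 was 0.422 ± 0.0488 in the WT libraries and 1.11 ± 0.175 in the Eμ-Myc libraries (SD, n = 4). Eif4a2 was thus the higher of the pair in all 4 WT libraries, and Eif4a1 in 3 of 4 Eμ-Myc libraries. Eif4g1 over Eif4g3 was 0.807 ± 0.0710 in WT, below 1 in every library, and 1.64 ± 0.239 in Eμ-Myc, above 1 in every library. Eif4e over Eif4e3 was 1.39 ± 0.264 in WT and 4.11 ± 1.19 in Eμ-Myc. In all 3 ratios the ranges of the groups did not overlap. A ratio within a library does not remove RNA from other cells, and the part of that RNA in these ratios was not tested.

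**Figure D2:**
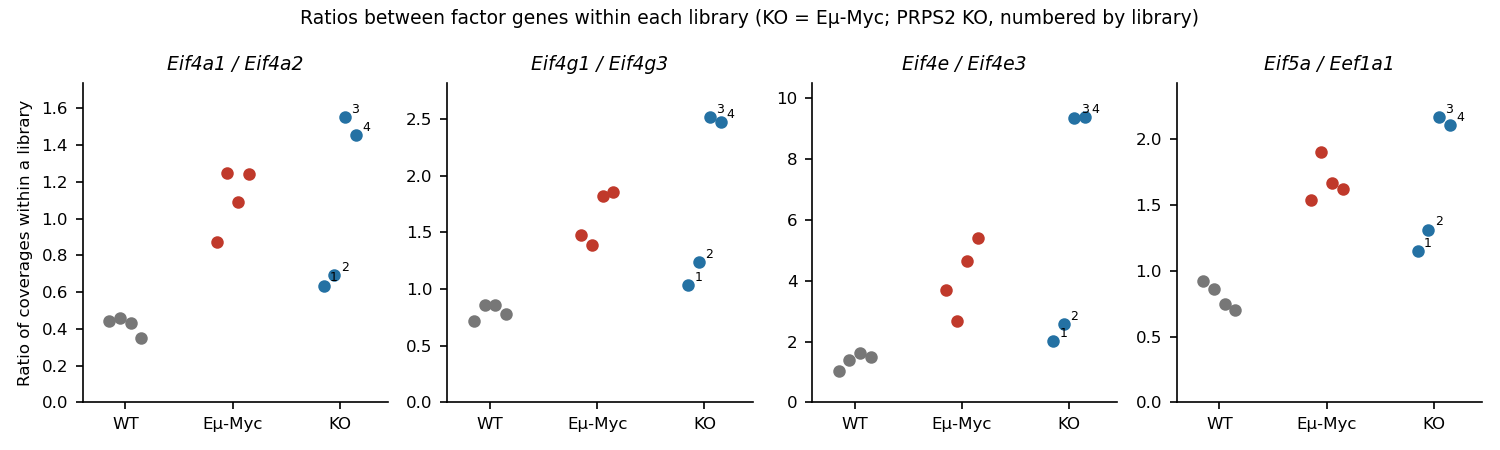
Ratio of the coverages of 2 genes within each library, with 1 point per library; numbers mark the knockout libraries. Eμ-Myc libraries lie above WT libraries in all 4 panels, and knockout libraries 1 and 2 lie below and 3 and 4 above the Eμ-Myc mean.

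Of the genes of the eIF4E-binding proteins, which restrain eIF4E, 1 of 2 passed. Eif4ebp1 was at 124, 74.3, 59.8 and 50.1 in WT and at 103, 170, 118 and 123 in Eμ-Myc. WT library 1 reached the Eμ-Myc range, so the groups overlapped, and the rise of 1.74-fold passed narrowly (log2 0.80, SE 0.27, adjusted p = 0.0320). That call was lost in 6 of the 8 fits that left out 1 library, with WT library 2, 3 or 4 or Eμ-Myc library 2, 3 or 4 missing. Eif4ebp2 was at 112, 95.8, 124 and 116 in WT and at 147, 84.2, 147 and 147 in Eμ-Myc. Eμ-Myc library 2 was below all WT libraries while the others were above them, and the difference did not pass (log2 0.20, adjusted p = 0.383). Without that library Eif4ebp2 passed.

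All 3 genes of subunit joining rose, by smaller amounts. Eif6, which keeps free large subunits from joining too early, was at 144, 144, 122 and 145 in WT and at 178, 278, 221 and 228 in Eμ-Myc. The groups were apart, with Eμ-Myc library 1 closest to WT, and the rise was 1.61-fold (log2 0.69, SE 0.14, adjusted p = 0.00249). Eif5b, the GTPase of subunit joining, rose 1.48-fold. Eif5, which triggers GTP hydrolysis on eIF2, rose 1.23-fold (adjusted p = 0.0216), and this call was lost under both other scalings and without WT library 2 or 3 or Eμ-Myc library 3 or 4.

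Eif5a reached the highest level of the 47 genes in Eμ-Myc. It was at 4188, 4231, 3633 and 3972 in WT and at 9022, 12150, 10410 and 11320 in Eμ-Myc. No Eμ-Myc library came near the WT range, and the rise was 2.67-fold (log2 1.41, SE 0.11, adjusted p = 1.38e-05). By mean level per base Eif5a stood 19th among all 24982 genes in WT and 2nd in Eμ-Myc. Eef1a1 was the highest of the 47 in WT, at 4988 ± 479 (SD, n = 4), and stood 10th among all genes in Eμ-Myc. Eif5a over Eef1a1 was 0.809 ± 0.104 in WT, below 1 in every library, and 1.68 ± 0.154 in Eμ-Myc.

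All 5 genes of the eEF1 group rose, with very different sizes. Eef1e1, also known as AIMP3 and a scaffold of the multi-synthetase complex rather than a delivery factor, rose the most of all 47 genes. It was at 47.1, 58.3, 52.7 and 59.7 in WT and at 132, 161, 172 and 183 in Eμ-Myc. The groups were far apart, with a 2.95-fold rise (log2 1.56, SE 0.13, adjusted p = 1.64e-05). The exchange factor subunits Eef1b2, Eef1d and Eef1g rose 1.55-fold, 1.61-fold and 1.74-fold. Eef1a1, which delivers the aminoacyl-tRNA, rose 1.28-fold (adjusted p = 0.0147), a call lost under scaling by total coverage and without Eμ-Myc library 4. Many processed copies of Eef1a1 lie in the genome, and how reads shared with them were counted is not given in the sources used here.

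Eef2, the translocase, and Eef2k, the kinase that inactivates it, both rose. Eef2k was at 39.4, 31.3, 37.2 and 32.1 in WT and at 63.3, 54.1, 63.3 and 63.1 in Eμ-Myc. The groups were apart, with a 1.74-fold rise (log2 0.80, SE 0.11, adjusted p = 0.000328). Eef2 rose 1.38-fold from a mean of 2029 in WT.

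**Figure D3:**
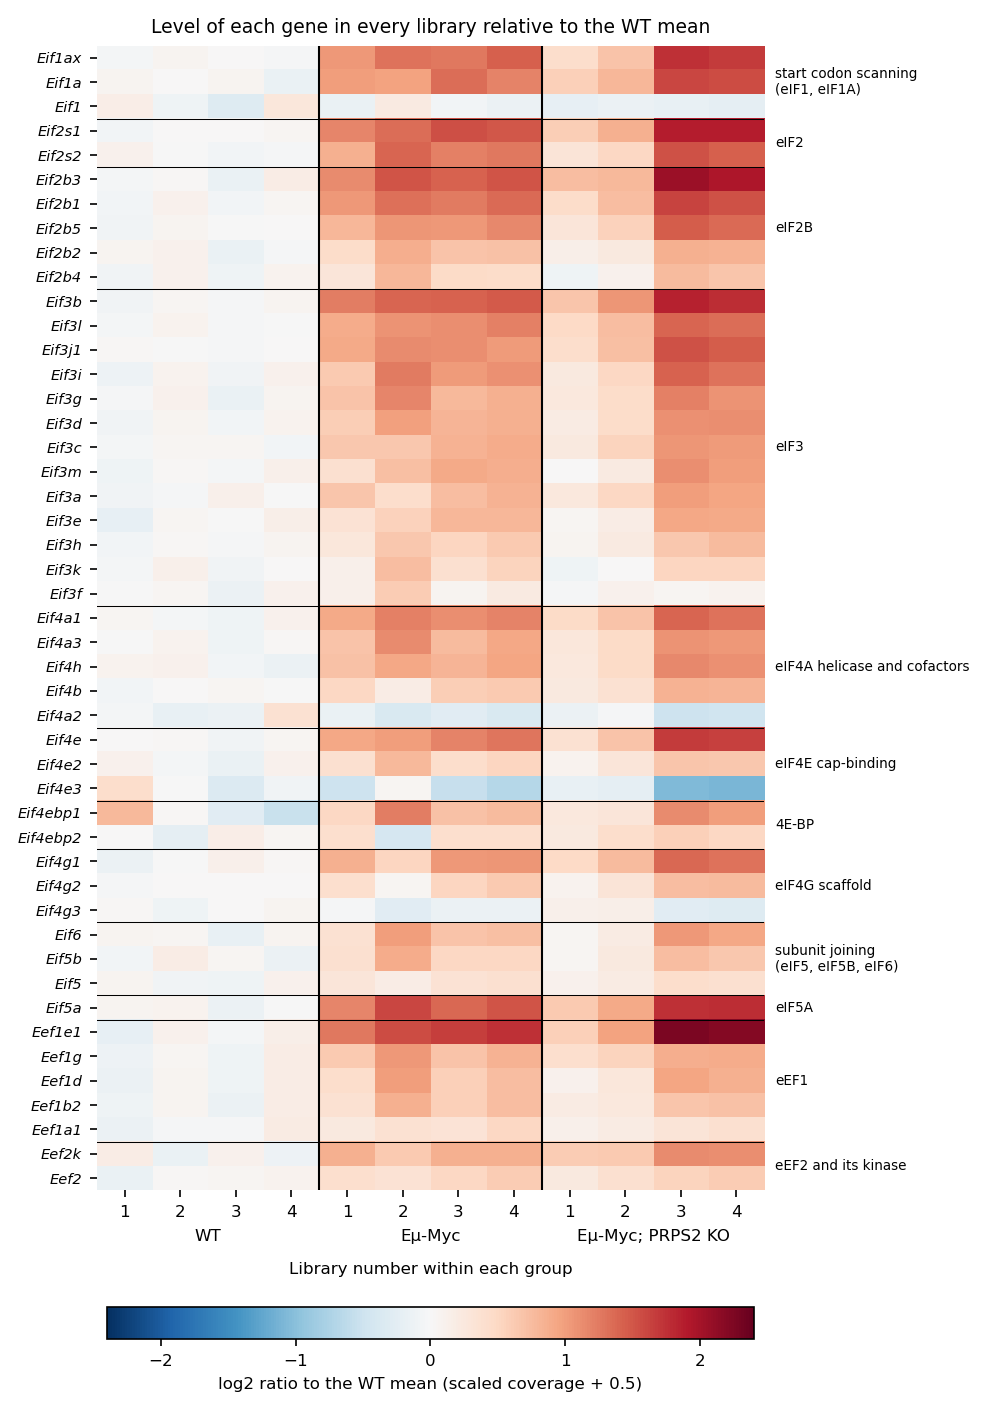
Log2 ratio of each gene to its WT mean (scaled coverage + 0.5) in all 12 libraries, grouped by factor. Red covers almost all rows in the Eμ-Myc libraries; in the knockout libraries 1 and 2 are paler and 3 and 4 darker than Eμ-Myc, and Eif4a2, Eif4e3, Eif4g3 and Eif1 stand out from their groups.

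Genes outside the 47 that act in the same steps were taken from a second list of 54, of which 52 could be tested. In Eμ-Myc 31 of them rose and 3 fell, which is 59.6% and 5.77% of the list, against 29% and 26.7% of all tested genes, with a median log2 fold change of 0.42. The number that rose was 23 under scaling by total coverage (44.2%, against 24.1% of all genes), and none of the 3 lower calls passed when one fit held all 12 libraries. All 3 tested genes of termination and recycling rose by between 2.04-fold and 2.18-fold, among them Etf1, which reads stop codons. Of the 10 tested elongation genes and modifying enzymes 9 rose, by between 1.28-fold (Eef2kmt) and 1.87-fold (Dohh, which completes hypusine on eIF5A). Of the 9 mitochondrial factors 5 rose and none fell (55.6%, against 29% of all tested genes called higher), and of the 6 kinases and phosphatase subunits that act on eIF2 only Eif2ak4, the amino acid sensor GCN2, passed. The largest increases were those of Pabpc4, a poly(A)-binding protein, at 2.85-fold, and Tsfm, a mitochondrial elongation factor, at 2.46-fold. The genes that fell were Pdcd4, an inhibitor of eIF4A, Mknk1, a kinase of eIF4E, and Rps6kb2, an S6 kinase. Pdcd4 was at 525, 465, 447 and 715 in WT and at 369, 315, 271 and 297 in Eμ-Myc, without overlap (log2 -0.76, SE 0.16, adjusted p = 0.00346). WT library 4, the highest for Pdcd4, also had the highest T-cell marker sum (3216). In knockout libraries 1 to 4 Pdcd4 was at 434, 467, 169 and 183, where T-cell markers summed to 721, 766, 53.7 and 54.8. The part of T-cell RNA in the Pdcd4 values was not tested. Mknk1 was at 344, 200, 196 and 220 in WT and at 179, 164, 165 and 140 in Eμ-Myc, again without overlap (log2 -0.53, SE 0.18, adjusted p = 0.0311). WT library 1, the highest for Mknk1, also had the highest myeloid marker sum (25590). In Eμ-Myc the highest myeloid sum was in library 2 (16560) and the highest Mknk1 in library 1. The part of myeloid RNA in the Mknk1 values was not tested. The call of Mknk1 was lost without Eμ-Myc library 2, 3 or 4, and that of Rps6kb2 in all fits without 1 library except the one without Eμ-Myc library 2.

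The second comparison asks whether losing PRPS2 changes these genes in B cells that carry the transgene. None of the 47 was called between Eμ-Myc; PRPS2 KO and Eμ-Myc (limma, 8 libraries, 12537 genes tested), and none had an unadjusted p under 0.05. Among all genes tested 1 was called (0.00798%), which was Prps2 itself. In none of the 47 were the groups free of overlap, which held for 1.68% of all genes. Log2 differences ran from -0.24 to 0.23 with a median of -0.10, against -0.08 over all genes. A missed threshold does not show equal levels: the 95% intervals of single genes reached down to -0.95 and up to 0.84, and 11 of the 47 lay within 0.5 of 0 on both sides.

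The genes with the smallest p in this comparison were Eif3f, Eif1 and Eif4ebp2, none of which passed. Eif3f was at 633, 688, 662 and 684 in the knockout libraries, close together and inside the WT range, with 2 of the 4 below every Eμ-Myc library (log2 -0.20, 95% interval -0.52 to 0.12, adjusted p = 1.00). Eif1 was at 590, 616, 601 and 585, again a narrow range (log2 -0.15, adjusted p = 1.00). Eif4ebp2 was at 131, 149, 166 and 157, above all WT libraries and on both sides of the 3 high Eμ-Myc libraries (log2 0.23, adjusted p = 1.00).

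In 44 of the 47 genes the log2 SD was larger among the knockout than among the Eμ-Myc libraries; the exceptions were Eif3f, Eif1 and Eif4ebp2. Eif5a was at 6183, 7497, 13410 and 13710 in knockout libraries 1 to 4. Eif4e was at 60.4, 75.8, 151 and 147, and Eef1e1 at 81.2, 106, 261 and 252. For these 3 genes libraries 1 and 2 were below every Eμ-Myc library and libraries 3 and 4 above every one, a pattern that 21 of the 47 genes showed (44.7%, against 16% of all tested genes). In 42 of the 47 genes both libraries 3 and 4 were above both 1 and 2, and in 3 the order was the other way round. Among all tested genes these shares were 43.9% and 43.6%. For the 47 genes the median log2 SD within a group was 0.432 in the knockout, against 0.108 in WT and 0.176 in Eμ-Myc. Over all tested genes it was 0.385 in the knockout, 0.216 in WT and 0.217 in Eμ-Myc.

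Placed on a line where the WT mean is 0 and the Eμ-Myc mean is 1, the 41 called genes had median positions of 0.325, 0.554, 1.39 and 1.32 in knockout libraries 1 to 4. No gene was above 1 in libraries 1 and 2, and 40 and all 41 were above 1 in libraries 3 and 4. The whole set of 7089 called genes lay at 0.41, 0.608, 1.46 and 1.41, so the spread was not confined to translation factors. The paralogue ratios were split alike, with Eif4a1 over Eif4a2 at 0.635, 0.693, 1.55 and 1.45 and Eif4e over Eif4e3 at 2.00, 2.56, 9.35 and 9.37. Myc itself was at 1091, 1654, 2907 and 3142 in these libraries, against 1564 to 2293 in Eμ-Myc. NK-cell markers summed to 406, 278, 15.7 and 16 and myeloid markers to 14800, 10750, 2814 and 1169. Plasma-cell markers summed to 489, 572, 236 and 263 and did not move together. Jchain, the joining chain of secreted antibodies, was at 182, 225, 1.93 and 2.34. Xbp1 (183, 205, 87.8 and 89.2) and Prdm1 (3.53, 3.69, 0.321 and 0.319) were also lower in libraries 3 and 4. Sdc1 (6.76, 7.49, 11.9 and 9.67) and Irf4 (113, 131, 134 and 161) were higher there. Erythroid markers summed to 93.0, 77.7, 105 and 109. No marker of these lists was at 0 in all libraries, and their part in the split was not tested.

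**Figure D4:**
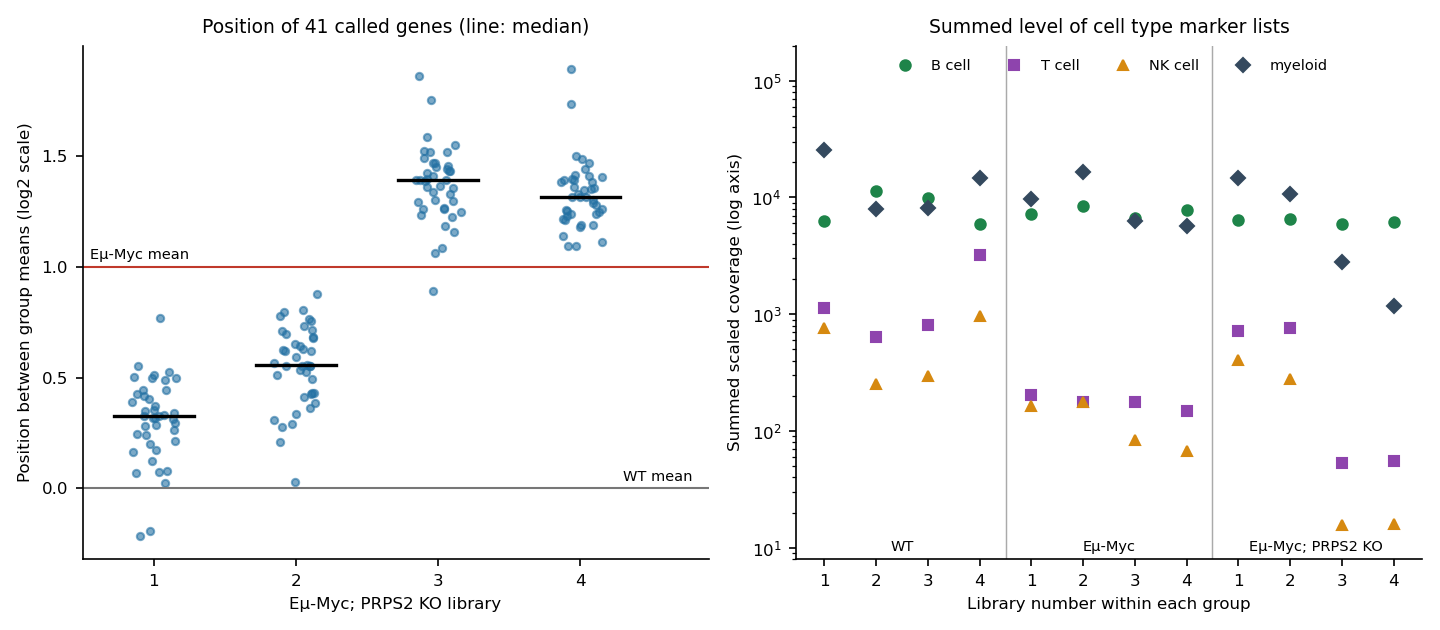
Left: position of the 41 called genes in each knockout library on a log2 line from the WT mean (0) to the Eμ-Myc mean (1), with the median as a bar. Right: summed scaled coverage of 4 marker lists in all 12 libraries on a log axis. T-cell, NK-cell and myeloid sums are high in knockout libraries 1 and 2 and low in 3 and 4. B-cell sums run from 5911 to 11410 in WT and from 5969 to 6568 in the knockout.

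Which knockout libraries were used set the direction of this comparison. With knockout libraries 1 and 2 both left out, 9 of the 47 genes were called, all as higher than Eμ-Myc, where 7.57% of all tested genes were called higher and 18% lower. With libraries 3 and 4 both left out, 8 were called, all as lower, where 2.97% of all genes were called higher and 5.67% lower. Both fits were chosen after the data were seen and keep 2 knockout libraries each. Weights estimated from each library's fit were 0.0851, 0.13, 3.08 and 8.6 for knockout libraries 1 to 4, and with them 32 genes passed, 29 upward and 3 downward, where 23.5% of all tested genes passed upward and 32.2% downward, and libraries 3 and 4 carry most of the knockout weight. With same-numbered libraries taken as pairs, 0 of the 47 were called, as without pairs.

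The third comparison sets transgenic B cells without PRPS2 against WT and shares the WT libraries with the first. Of the 47 genes 27 rose and none fell (limma, 12671 genes tested), where 31.4% of all genes were called, 17.2% as higher and 14.3% as lower. Every knockout library was above every WT library in 30 of the 47, against 19.5% of all genes. The median log2 fold change was 0.67, against -0.10 over all genes. By factor, 4 of 5 genes of the helicase group rose, 8 of 13 of eIF3, 3 of 5 of eIF2B, both of eIF2, 2 of 5 of eEF1, and both of the eEF2 group. Eif1a, Eif1ax, Eif4e, Eif4g1 and Eif5a rose as well. Eif4ebp2 rose 1.35-fold (adjusted p = 0.0392), a call lost in 12 of the 19 alternatives. None of the 3 subunit joining genes passed, with adjusted p from 0.0920 to 0.0947.

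The 5 called genes with the largest change were Eef1e1, Eif2b3, Eif3b, Eif2s1 and Eif5a. Eef1e1, whose knockout values are given above, was higher than every WT library in all 4 (2.83-fold, SE of log2 0.38, adjusted p = 0.0302). Eif2b3 was at 33.9, 34.8, 84.9 and 79.1 in the knockout, with the lowest library above the WT maximum of 22.8 (2.59-fold, SE 0.33, adjusted p = 0.0263). Eif3b was at 249, 325, 563 and 535 (2.52-fold, SE 0.26, adjusted p = 0.0171). These genes had the same sign in all knockout libraries, while the level of each in library 3 was far above that in library 1. Eif2s1 was at 87.1, 105, 214 and 215 (2.47-fold, SE 0.30, adjusted p = 0.0247), and Eif5a rose 2.4-fold (SE 0.26, adjusted p = 0.0200).

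Most other genes named in the first comparison had the same order of knockout libraries. Eif1ax was at 43.2, 51.3, 109 and 103 and Eif4a1 at 1034, 1214, 1974 and 1865, all above WT. Eif4g1 was at 393, 477, 732 and 695 and Eef2k at 53.5, 54.3, 77.2 and 76.4, again above WT in all 4. Eif6 was at 143, 159, 286 and 264 and Eif4ebp1 at 86.8, 88.8, 160 and 146, and both overlapped WT. Eif4e3 was at 30.2, 29.6, 16.2 and 15.7, so here libraries 3 and 4 were the low ones (log2 -0.64, 95% interval -1.27 to -0.01, adjusted p = 0.0958).

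The count of 27 was not stable when 1 library was left out. Without WT library 1, 2, 3 or 4 it was 1, 0, 1 and 6, and without knockout library 3 or 4 it was 2 and 0, while without knockout library 1 it was 40. The share of all tested genes called fell in the same fits, from 31.4% to between 3.57% and 10.5% without 1 WT library and to 4.92% and 4.18% without knockout library 3 or 4, and it was 54.8% without knockout library 1. With same-numbered libraries as a block 13 were called, all higher, where 9.28% of all tested genes were called higher. With knockout libraries 1 and 2 both left out 42 genes were called higher and 3 lower, where 33% of all tested genes were called higher and 37.4% lower. With 3 and 4 both left out 14 were called, all higher, where 7.58% of all genes were called higher. Eif5a passed in both fits, at log2 1.76 and 0.77, as did Eef1e1 at 2.23 and 0.77. The call of Eif5a was lost without WT library 1, 2 or 3 and without knockout library 3 or 4. That of Eef1e1 was lost without any 1 of the WT libraries and without knockout library 3 or 4.

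**Figure D5:**
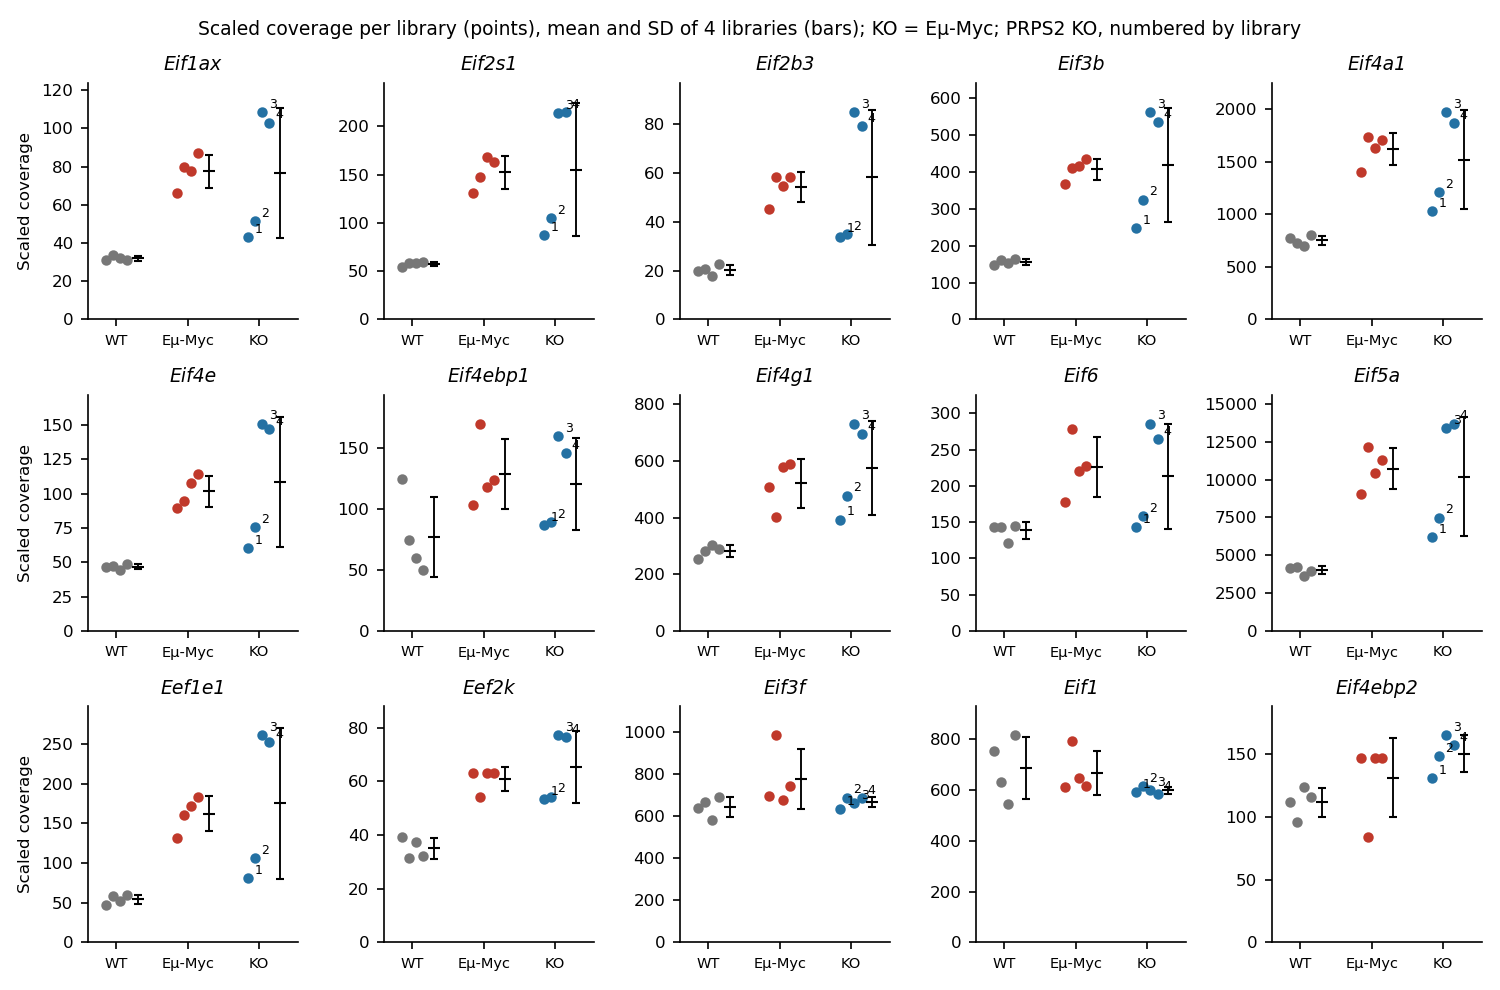
Scaled coverage of the 15 genes named by rule in each of the 12 libraries, with the mean and SD of 4 libraries as a bar; numbers mark knockout libraries. For 11 of the 12 genes named in Eμ-Myc against WT the WT and Eμ-Myc points do not overlap; Eif4ebp1 is the exception, and the knockout points of most genes fall on both sides of the Eμ-Myc points.

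In the second list 17 of 52 genes rose in the knockout against WT and 1 fell, which is 32.7% and 1.92% of the list, against 17.2% and 14.3% of all tested genes. The number called was 3, 2, 2 and 9 without WT library 1, 2, 3 or 4, and 34, 19, 4 and 3 without knockout library 1, 2, 3 or 4. Of all tested genes 6.73%, 3.57%, 4.44% and 10.5% were called in the former 4 fits and 54.8%, 34.7%, 4.92% and 4.18% in the latter. The gene that fell was Eif4ebp3, the lowest in coverage of the eIF4E-binding protein genes in WT. Eif4ebp3 was at 38.8, 42.3, 34.3 and 36.3 in WT and at 25.2, 31.0, 23.8 and 25.7 in the knockout, without overlap (log2 -0.52, SE 0.13, adjusted p = 0.0288). Its call was lost without any 1 of the WT libraries, without knockout library 3, 4 or both, and with the replicate block, under which 14 of the 52 genes were called, all higher. Pabpc4 stood at 330, 435, 718 and 680 in the knockout, above the WT range of 172 to 198. Against Eμ-Myc none of the 52 was called. With library quality weights 24 were called higher and 5 lower (46.2% and 9.62%, against 23.5% and 32.2% of all genes). With knockout libraries 1 and 2 both left out 6 were called higher and 4 lower (11.5% and 7.69%, against 7.57% and 18%), and with 3 and 4 both left out 4 were called, all lower (7.69%, against 5.67%).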

How the data were processed

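Polyadenylated RNA of splenic B cells was made into directional libraries, per the labels' protocols. The authors deposited 1 table per library with every gene's mean coverage, given to 1 decimal. The submitters' processing notes name mm10, DESeq and R 4.3.3, with no role; aligner and annotation are not given in the sources used here, nor whether counting used strand. In GENCODE M21, 9 of the 47 genes share exonic bases with a gene on the other strand and 2 with a coding gene on their own.

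Coverage was scaled by trimmed means of log ratios (30% of ratios and 5% of means trimmed at each end). Genes with at least 1 in at least 4 of 8 libraries were tested with limma 3.58.1 in R 4.3.3 on log2(scaled coverage + 0.5), two-sided, with robust empirical Bayes moderation and a mean-dependent prior, in the 8 libraries of each comparison. Fold changes are on that scale. The threshold for a call was 0.05 after Benjamini-Hochberg adjustment over every gene tested. Each p-value sets a group difference against the spread between these libraries, moderated over all genes tested. The method was tested on simulated data. Figures used Python and matplotlib.

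The members and lists were chosen with earlier results of these data known. Values in all libraries are given for the called gene with the largest change in each factor group and any called gene moving against its group; the 3 smallest p against Eμ-Myc; and the 5 largest changes in the knockout against WT. Eif4a2, Eif4e3 and other paralogues, and Rps6kb2 and Eif4ebp3, were added after their values were seen. Deviations of same-numbered knockout and Eμ-Myc libraries correlated with r of 0.658, 0.192, 0.253 and 0.608, all over 0.1, so a replicate block was tried as pairs there; the pairing comes from the values alone. Promoter windows were searched on RefSeq sequence of GRCm38.p6, which mm10 corresponds to. Alternatives tried were 2 other scalings, pseudocounts of 0.1 and 2, no filter, a floor of 10 in every library, one fit to the 12 libraries, a replicate block, quality weights and leaving out each library; leaving out knockout libraries 1 and 2, or 3 and 4, was added after the data were seen.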

Additional observations from a re-analysis of the deposited data

Results flagged for a closer look

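In 3 of 141 groups of 4 values (47 genes in 3 groups), 1 library lay far from the other 3 by Dixon's ratio; chance flags about 1 in 20 groups. Eif4ebp2 was at 84.24 in Eμ-Myc library 2, against 146.9 to 147.2 in the others. Eef2k was at 54.12 in Eμ-Myc library 2, against 63.07 to 63.26. Eif6 was at 121.5 in WT library 3, against 143.5 to 145.3.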

How the results depend on the processing

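In Eμ-Myc against WT the number of genes called stayed between 36 and 43 under all alternatives, and those called higher between 36 and 42. Of all tested genes 55.7% were called as reported, 40.5% with no filter, 43.7% with one fit to the 12 libraries and 70.7% with quality weights. Of the 47 genes 0 were called lower as reported, 1 with median-of-ratios size factors and 3 with scaling by total coverage. The number called lower was 1 with library quality weights and 0 to 1 when 1 library was left out. Against Eμ-Myc no gene was called under any alternative except quality weights, which called 32 of the 47 (29 higher, 3 lower), and the joint omissions chosen after seeing the data: 9, all higher, without knockout libraries 1 and 2, and 8, all lower, without 3 and 4. In the knockout against WT the count of 27, all higher, became 13 with the replicate block. It was 45 with quality weights (42 higher, 3 lower), where 39.1% of all tested genes were called higher and 44.8% lower. The count ran from 0 to 40 when 1 library was left out, with 0 to 39 higher and 0 to 1 lower. It was 45 (42 higher, 3 lower) without knockout libraries 1 and 2 and 14, all higher, without 3 and 4; fewer libraries were then in the fit, and the cause was not tested. The replicate block called 41 genes in Eμ-Myc against WT and 0 against Eμ-Myc, as without it. For knockout and WT, and for Eμ-Myc and WT, same-numbered libraries did not all correlate above 0.1 (lowest r -0.424 and -0.0978), so they share only a number there. None of the 20 fold changes of genes named by rule changed sign in any of these fits. Among all 47, differences from Eμ-Myc changed sign in 37 genes with quality weights and in 29 without knockout library 1. Read depth is unknown, so no counting error could be given.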
